A study of Mus musculus with 6 samples.

Results

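The 38 genes described here encode the enzymes of the tricarboxylic acid (TCA) cycle, the pyruvate dehydrogenase complex with its kinases and a phosphatase, the carriers that move pyruvate, citrate and other organic acids across the inner mitochondrial membrane, and the enzymes that use or replenish cycle intermediates. They were found by gene name in the deposited comparison table, where all 38 were present as 1 row each among 25721 genes. All 38 also passed the filter on low counts, which kept 15609 genes. The RNA came from tibial cortex of wild-type mice, with the bone ends cut off and the marrow flushed out. Mice in the adenine group ate a diet with 0.2% adenine by weight, used to induce chronic kidney disease, and mice in the control group ate the diet without adenine. Feeding began at 8 weeks of age and lasted 4 weeks, so both groups were 12 weeks old at collection. There were 3 libraries per diet, called adenine 1 to 3 and control 1 to 3 after their labels. No label ties a library to its own mouse, and the p-values therefore measure spread between libraries that may be partly technical.

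Citrate is made in mitochondria when citrate synthase joins acetyl-CoA, delivered from pyruvate by pyruvate dehydrogenase or from fatty acids, to oxaloacetate. It is either oxidised around the cycle or exported by the citrate carrier to the cytosol, where it is cleaved to acetyl-CoA for lipid synthesis. Bone holds much of the body's citrate, bound at the mineral surface, and the title of the series concerns citrate made by osteocytes, which live inside the mineralised matrix. The transcripts of these enzymes are abundant in oxidative tissues such as skeletal muscle, which lies against the tibia.

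Total counts were 9977694 to 12044459 in the adenine libraries and 10549071 to 14598010 in the control libraries. Bone markers were abundant in all 6 libraries: the osteoblast and matrix list summed to 16467 to 42404 CPM (counts scaled to library size, with TMM factors from edgeR) in the adenine libraries and 14982 to 17341 CPM in the control libraries, and Dmp1, an osteocyte matrix protein, was at 37.6 to 94.6 CPM in the adenine libraries and 109 to 163 CPM in the control libraries. Skeletal muscle RNA was also present and uneven. The 25 tested genes of a 26-gene muscle list summed to 4423, 111562 and 8968 CPM in adenine 1 to 3, against 77175, 29276 and 126173 CPM in control 1 to 3, and 0 of the 26 were without counts in all libraries. Control 3, adenine 2 and control 1 were thus the libraries with most muscle RNA, and adenine 1 and adenine 3 those with least. The actin gene Acta1, for example, had 654, 15665 and 1260 CPM in the adenine libraries and 14467, 4412 and 20739 CPM in the control libraries. In bulk RNA, fewer cells of a type and less RNA per cell cannot be told apart.

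Summed markers of osteoclasts, osteocytes, fibroblasts, endothelial cells and adipocytes did not overlap between the diets, although edgeR called 0 of their genes over all genes. Of single genes, 8.86% had all adenine libraries below all control libraries and 7.68% the reverse. Unadjusted edgeR p values under 0.05 were found for 10 of 12, 8 of 12, 7 of 10, 8 of 8 and 4 of 9 tested markers in that order, against 10.7% of all genes. Of the 8 osteocyte markers 7 were lower and 1, Capg, higher on adenine. DESeq2 called 8, 5, 6, 5 and 4, against 1.93% of all genes. The 4 adipocyte calls were Cfd, Cidec, Plin1 and Lep, and Lep is not among the 9 markers that edgeR tested. Kidney tubule markers, whose sums overlapped, had 10 of 18 under 0.05, all higher on adenine, and 2 DESeq2 calls. The 12 osteoclast markers summed to 4323 to 7579 CPM in the adenine libraries and 2002 to 2111 CPM in the control libraries. The 12 osteocyte markers summed to 217 to 328 CPM in the adenine libraries and 334 to 663 CPM in the control libraries. Fibroblast markers summed to 981 to 1515 CPM in the adenine libraries and 2361 to 3327 CPM in the control libraries, and endothelial markers to 351 to 541 CPM in the adenine libraries and 776 to 996 CPM in the control libraries. Blood markers overlapped between diets and were low in control 3: the red cell list summed to 48378 to 73377 CPM in the adenine libraries and 10041 to 73360 CPM in the control libraries, and the neutrophil list to 3244 to 4157 CPM in the adenine libraries and 407 to 3899 CPM in the control libraries. The part of these cells in the levels of the 38 genes was not tested.

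None of the 38 genes passed the test of diet. edgeR's quasi-likelihood test, adjusted by Benjamini-Hochberg over all 15609 genes, called 0 members at an adjusted p under 0.05, and 0% of all genes. The DESeq2 Wald test called 0 members too, against 1.93% of all genes. The smallest adjusted p among the members was 0.405 (Idh1, edgeR). At an unadjusted p under 0.05 edgeR had 3 members, Idh1, Mpc1 and Mpc2, against 10.7% of all genes. Mpc1 and Mpc2 were lower on adenine, as were 6.49% of all genes at that threshold, and Idh1 was higher, as were 4.22%. DESeq2 had 6 members at an unadjusted p under 0.05, Idh1, Idh3a, Sucla2, Dlat, Mpc1 and Mpc2, against 8.47% of all genes. Without adenine 2, the adenine library with most muscle RNA, 24 members had an unadjusted p under 0.05 in edgeR, against 19.7% of all genes, and 0 passed adjustment (smallest adjusted p = 0.0731), against 2.03% of all genes. Without control 2 the unadjusted threshold was passed by 17 members and 17.7% of all genes, and with no filter on low counts by 9 members and 8.2%. Log2 fold changes, adenine over control, were below 0 for 30 of 38 members and above 0 for 8, whereas 50% of all tested genes were below 0. The members' median was -0.68, and that of all genes was 0.00 to 2 decimals. Without adenine 2 the fold change of 25 members grew by over 1.5 times on the log2 scale, and without control 3 that of 12 members shrank by over 1.5 times. A log2 fold change of -0.5 or lower was seen in 24 members and in 21.9% of all genes. These counts describe a list chosen with earlier results known, and its genes vary together across libraries, as the order of libraries shows.

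**Figure D1:**
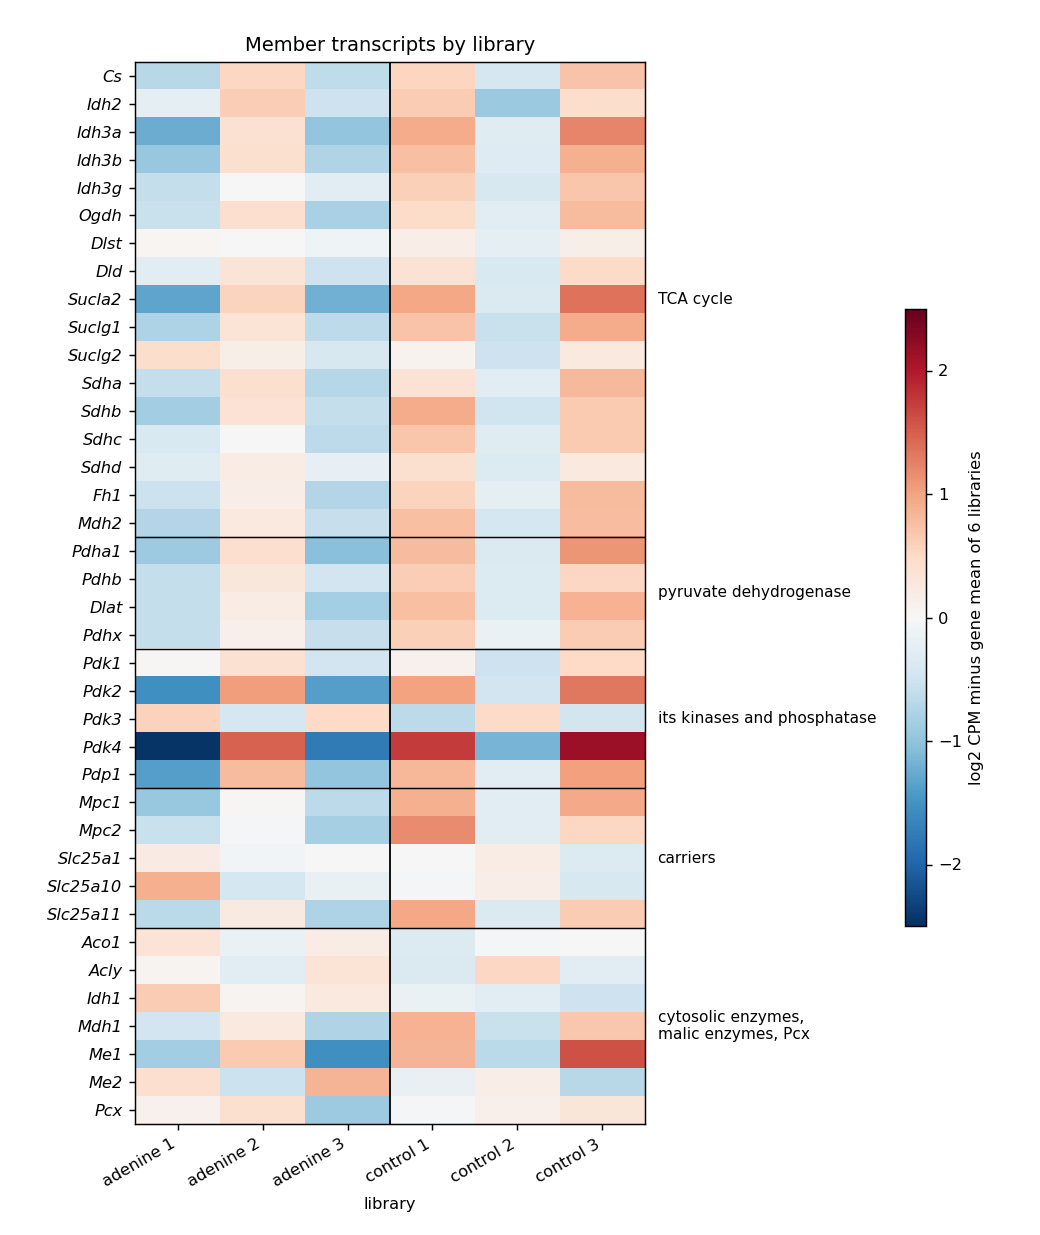
Level of each of the 38 transcripts in each library, as log2 CPM minus that gene's mean over the 6 libraries (red higher, blue lower), with genes in rows grouped by role and the adenine libraries left of the control libraries. In most rows adenine 2, control 1 and control 3 are red while adenine 1, adenine 3 and control 2 are blue; Pdk4 has the widest range and Dlst the narrowest.

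Citrate synthase, Cs (ENSMUSG00000005683, chromosome 10, 128173603 to 128198348, + strand, in the files' coordinates; the sources used here do not name their build), makes citrate. It was measured at 185, 430.3 and 192 CPM in adenine 1 to 3 and at 433, 224 and 489 CPM in control 1 to 3. Adenine 2 lay with control 1 and control 3, and control 2 lay near adenine 1 and adenine 3, so the groups overlapped. Its log2 fold change of -0.50 had a standard error (SE) of 0.46 and a 95% interval of -1.57 to 0.56 (edgeR adjusted p = 0.677). Without adenine 2 it was -1.03, and without control 3 it was -0.29.

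Isocitrate is oxidised in mitochondria by the NAD-dependent enzyme, a complex of the products of Idh3a, Idh3b and Idh3g, and by the NADP-dependent Idh2. Idh3a, the catalytic subunit (ENSMUSG00000032279, chromosome 9, 54493618 to 54511945), had 77.5, 239 and 92.4 CPM in the adenine libraries and 352, 149 and 430.2 CPM in the control libraries. Its order of libraries was that of Cs. The log2 fold change was -1.19 (SE 0.55, 95% interval -2.48 to 0.10, edgeR adjusted p = 0.495), and it was -1.89 without adenine 2. Idh3b had -0.84, Idh3g -0.66 and Idh2 -0.15, none past the threshold. The subunits did not keep one ratio: Idh3a made up 20.3%, 27.7% and 20.3% of the summed FPKM (fragments scaled by transcript length and library size) of the 3 subunits in adenine 1 to 3, against 29.2%, 26.5% and 31.6% in control 1 to 3. The share of Idh3g ran the other way, with 37.8%, 25.1% and 39.4% in the adenine libraries and 27.5%, 29.6% and 26.0% in the control libraries.

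The 2-oxoglutarate dehydrogenase complex turns 2-oxoglutarate into succinyl-CoA, and its Ogdh and Dlst components behaved unlike each other. Ogdh, the decarboxylating component, had 209, 412 and 176 CPM in the adenine libraries and 424, 257 and 534 CPM in the control libraries (log2 fold change -0.61, SE 0.43). Dlst, the succinyl-transferring core, had 217, 212 and 194 CPM in the adenine libraries and 236, 177 and 234 CPM in the control libraries (-0.06, SE 0.25, 95% interval -0.63 to 0.52). Dlst varied least of all 38 genes, its highest library being 1.33 times its lowest. Dld, the flavoprotein shared with pyruvate dehydrogenase, had a log2 fold change of -0.32.

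Succinyl-CoA ligase pairs the alpha subunit of Suclg1 with a beta subunit that sets the nucleotide, Sucla2 for ATP and Suclg2 for GTP. Sucla2 (ENSMUSG00000022110, chromosome 14, 73762759 to 73833582) had 60.5, 223 and 65.9 CPM in the adenine libraries and 296, 117 and 385 CPM in the control libraries. Control 3 was 6.37 times adenine 1. Suclg2 had 60.1, 49.1 and 33.8 CPM in the adenine libraries and 47.4, 30.8 and 53.0 CPM in the control libraries, with its highest level in adenine 1. The log2 fold changes were -1.19 (SE 0.63) for Sucla2, 0.12 (SE 0.30) for Suclg2 and -0.77 (SE 0.46) for Suclg1, and the edgeR adjusted p values were 0.535, 0.88 and 0.57 in that order. Adenine 1 was also the library with most kidney tubule RNA, whose 18 tested markers of a 20-gene list summed to 3001, 1017 and 140 CPM in the adenine libraries and 311, 99.4 and 104 CPM in the control libraries. Without adenine 2 the log2 fold change of Sucla2 was -2.09. Without adenine 1 that of Suclg2 was -0.078, and without control 2, its lowest library, it was -0.079; the part of kidney RNA in its level was not tested.

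The later steps of the cycle shared the pattern of Cs. Succinate dehydrogenase, which also feeds electrons to the respiratory chain, had log2 fold changes of -0.57 for the flavoprotein gene Sdha, -0.75 for the iron-sulfur gene Sdhb, -0.74 for the membrane anchor gene Sdhc and -0.24 for the other anchor gene, Sdhd. Fumarase (Fh1) had -0.76 and mitochondrial malate dehydrogenase (Mdh2) -0.74, with SE of 0.36 and 0.44. Sdhd had the highest mean FPKM of the 38 genes over all 6 libraries. Its means were 110.2 FPKM in the adenine libraries and 126 FPKM in the control libraries. Pdk4 had a higher mean in the control libraries, 141 FPKM, but was not higher in each of them. In control 2 Pdk4 had 23.1 FPKM and Sdhd 90.0 FPKM. Sdhd was also the narrowest of the 4 subunit genes, its highest library being 1.68 times its lowest. Of the 17 cycle genes, 16 had a log2 fold change below 0, the median was -0.66, and 15 had control 1, control 3 and adenine 2 as their 3 highest libraries; Dlst and Suclg2 were the exceptions.

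The promoters of the members (250 bases before to 50 after the start site, RefSeq, GRCm38.p6) were searched on both strands for 3 motifs. These are named for factors of mitochondrial and fatty acid genes. The part of such factors in the shared order of libraries was not tested. The nuclear respiratory factor 1 motif, GCGCA, any base, then GCGC, was in the promoters of 4 of the 34 members with a sequence, Sdha, Sdhd, Sucla2 and Dld, and in 5.19% of all 27025 genes. The extended half-site of estrogen-related receptors, TNAAGGTCA, was found for 1 member, Sdhd, and in 1.43% of all genes. The direct repeat bound by PPAR receptors, 2 copies of AGGTCA with 1 base of any kind between them, was found for 0 members and in 0.0481% of all genes. A match is a run of letters and not a measured binding site. The windows below hold the matches that end before the start site, with up to 15 flanking bases cut at the start site and the motif in capitals, on the strand of the gene; that of Sucla2 is read on the reverse strand.
Sdha, chr13:74350314-74350353: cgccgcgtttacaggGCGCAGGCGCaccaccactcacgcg
Sdha, chr13:74350271-74350310: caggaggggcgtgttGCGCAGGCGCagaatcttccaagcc
Sdha, chr13:74350241-74350265: cccgcgcgactcggtGCGCAAGCGC
Sdhd, chr9:50603904-50603943: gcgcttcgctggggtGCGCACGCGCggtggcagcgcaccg
Sucla2, chr14:73552754-73552785: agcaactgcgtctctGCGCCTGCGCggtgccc

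Pyruvate dehydrogenase links glycolysis to the cycle. Pdha1, the X-linked catalytic subunit that the kinases phosphorylate, had 90.4, 228 and 82.4 CPM in the adenine libraries and 292, 131 and 362 CPM in the control libraries. Again adenine 2 stood above control 2. Its log2 fold change was -0.97 (SE 0.52, 95% interval -2.19 to 0.25, edgeR adjusted p = 0.541), and it was -1.61 without adenine 2. Its partner Pdhb had -0.53, the acetyl-transferring core gene Dlat -0.87 and the docking protein gene Pdhx -0.71. In edgeR Pdhx came closest to the unadjusted threshold in the complex (unadjusted p = 0.0541 and adjusted p = 0.478, edgeR quasi-likelihood test). It had 27.0, 44.8 and 27.5 CPM in the adenine libraries and 62.3, 36.4 and 63.7 CPM in the control libraries. In the DESeq2 Wald test Dlat had the lower unadjusted p, 0.0489, against 0.0688 for Pdhx. All 4 genes had control 1, control 3 and adenine 2 as their highest libraries.

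The 4 pyruvate dehydrogenase kinases switch the complex off, and they fell into opposite patterns. Pdk4, the kinase induced by fasting and fatty acids in muscle and heart (ENSMUSG00000019577, chromosome 6, 5483351 to 5496309, - strand), had 35.0, 539 and 56.8 CPM in the adenine libraries and 646, 86.4 and 849 CPM in the control libraries. Its highest library was 24.2 times its lowest, the widest range of the 38 genes, and the 3 high and 3 low libraries did not follow diet. The log2 fold change of -1.33 therefore had an SE of 1.18 and a 95% interval of -4.11 to 1.46 (edgeR adjusted p = 0.674), and it was -3.55 without adenine 2 and -0.81 without control 3. Pdk2, a widely expressed kinase, had 37.9, 227 and 42.1 CPM in the adenine libraries and 221, 77.9 and 273 CPM in the control libraries (log2 fold change -0.90, SE 0.79; -2.27 without adenine 2 and -0.50 without adenine 1). Pdk3 ran the other way, with 33.2, 16.3 and 31.4 CPM in the adenine libraries and 14.0, 30.8 and 16.0 CPM in the control libraries (0.41, SE 0.40; 0.84 without control 2 and 0.22 without control 1). Pdk1, a target of the hypoxia response, had 59.7, 76.6 and 41.7 CPM in the adenine libraries and 62.6, 40.6 and 82.3 CPM in the control libraries (-0.06, SE 0.33). Pdp1, a phosphatase that switches the complex back on, followed Pdk2 and Pdk4, with 12.4, 56.0 and 16.2 CPM in the adenine libraries and 57.7, 26.6 and 66.4 CPM in the control libraries (-0.84, SE 0.62). Its log2 fold change was -1.83 without adenine 2 and -0.48 without adenine 1. Pdp2, the other phosphatase gene and not a member, did not follow them. It had 7.58, 4.30 and 5.03 CPM in the adenine libraries and 6.74, 5.37 and 5.39 CPM in the control libraries (-0.05, SE 0.38).

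**Figure D2:**
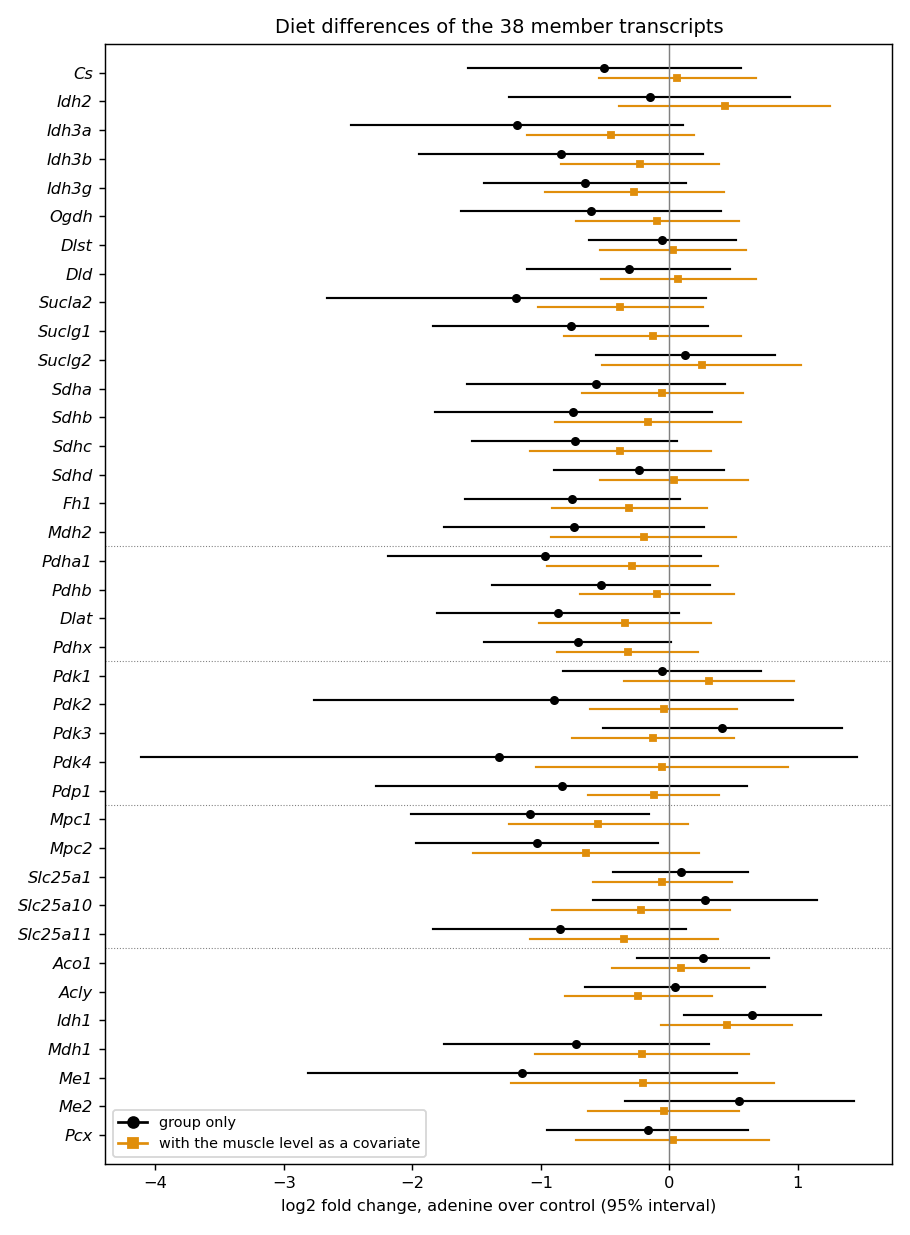
Log2 fold change of each member, adenine over control, with its 95% interval, from edgeR with diet as the only term (black circles) and with the muscle level added as a covariate (orange squares). The black intervals of Idh1, Mpc1 and Mpc2 leave out 0 before adjustment over all genes, and no orange interval does.

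Pyruvate enters mitochondria through a carrier made of the products of Mpc1 and Mpc2. Mpc1 (ENSMUSG00000023861, chromosome 17, 8501736 to 8516493) had 13.1, 26.0 and 16.1 CPM in the adenine libraries and 47.0, 21.0 and 49.1 CPM in the control libraries. Mpc2 had 86.9, 124 and 72.0 CPM in the adenine libraries and 288, 105 and 183 CPM in the control libraries. For both genes control 2 lay below adenine 2 and above the other adenine libraries. The log2 fold changes were -1.09 for Mpc1 (SE 0.40, edgeR adjusted p = 0.414) and -1.03 for Mpc2 (SE 0.41, edgeR adjusted p = 0.442); without control 1 Mpc2 had -0.61. The table also holds Mpc1-ps, a processed pseudogene on chromosome 12, at 241, 477 and 280 counts in the adenine libraries and 994, 279 and 943 counts in the control libraries. Mpc1 itself had 142, 248 and 215 counts in the adenine libraries and 656, 239 and 647 counts in the control libraries, fewer than the pseudogene in every library. Reads of this pair may be split between the 2 rows, so the level of Mpc1 is uncertain; the pseudogene's log2 fold change was -0.84 (SE 0.50).

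The carriers that move organic acids differed from one another. Slc25a1, the citrate carrier, was nearly level, with 31.2, 26.0 and 27.4 CPM in the adenine libraries and 27.2, 31.1 and 21.3 CPM in the control libraries. Its log2 fold change was 0.09, and the 95% interval of -0.43 to 0.61 leaves room for either direction. Slc25a11, the exchanger of 2-oxoglutarate for malate, had 74.5, 139 and 69.3 CPM in the adenine libraries and 234, 92.0 and 184 CPM in the control libraries (-0.85, SE 0.42). Slc25a10, the dicarboxylate carrier, had 52.5, 21.0 and 25.0 CPM in the adenine libraries and 27.9, 32.0 and 21.3 CPM in the control libraries (0.28, SE 0.37). Its high value was in adenine 1, the library with most kidney tubule RNA, and without that library its log2 fold change was -0.23; the part of kidney RNA was not tested.

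Idh1, the cytosolic isocitrate dehydrogenase that supplies NADPH (ENSMUSG00000025950, chromosome 1, 65197775 to 65225659, - strand), was the only member whose groups did not overlap. It had 75.8, 50.7 and 57.8 CPM in adenine 1 to 3 and 43.4, 40.4 and 34.0 CPM in control 1 to 3. The means were 61.4 ± 12.9 CPM in the adenine group and 39.2 ± 4.81 CPM in the control group (SD, n = 3 each). All adenine libraries lay above all control libraries in this 1 of 38 members and in 7.68% of all genes, and the reverse held for 0 members and 8.86% of all genes. The log2 fold change was 0.65 (SE 0.23, 95% interval 0.11 to 1.18, unadjusted p = 0.0236, edgeR adjusted p = 0.405). In the authors' deposited table it was 0.66 with an adjusted p of 0.424. Over 15 alternative settings it ran from 0.45 to 0.77, with adjusted p values of 0.147 to 0.903. Its highest level, too, was in adenine 1, the library with most kidney tubule RNA. Without that library its log2 fold change was 0.47 (edgeR adjusted p = 0.903). The part of kidney RNA in its level was not tested.

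Other enzymes that act on citrate or malate outside the cycle had small or uneven differences. Acly, which cleaves exported citrate to acetyl-CoA, had 61.6, 48.3 and 74.3 CPM in the adenine libraries and 46.0, 83.9 and 48.5 CPM in the control libraries (log2 fold change 0.05, 95% interval -0.65 to 0.75). Aco1, the cytosolic aconitase that doubles as an iron regulatory protein, had 53.6, 37.6 and 48.0 CPM in the adenine libraries and 33.3, 40.4 and 42.4 CPM in the control libraries (0.26, 95% interval -0.25 to 0.78). Pcx, which makes oxaloacetate from pyruvate, had 49.2, 60.1 and 24.0 CPM in the adenine libraries and 44.1, 49.6 and 56.1 CPM in the control libraries (-0.17, SE 0.34). For all 3 genes the groups overlapped. Mdh1, the cytosolic malate dehydrogenase of the malate-aspartate shuttle, followed the cycle genes, with 166, 272 and 136 CPM in the adenine libraries and 422, 157 and 367 CPM in the control libraries (-0.72, SE 0.44). The 9 tested adipocyte markers of a 10-gene list, whose cells use Acly and Me1 for lipid synthesis, summed to 361, 686 and 350 CPM in the adenine libraries. In the control libraries they summed to 752, 690 and 1155 CPM, so adenine 2 lay just below control 2. The most abundant of them, Fabp4 and Pnpla2, overlapped between the diets, whereas Plin1, Cidec and Cfd did not. The part of adipocytes in these levels was not tested.

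Malic enzymes turn malate into pyruvate. The members are Me1, of the cytosol, and Me2, of mitochondria, and the levels of this pair ran in nearly opposite orders. Me1 had 57.0, 164 and 35.7 CPM in the adenine libraries and 187, 65.4 and 315 CPM in the control libraries. Me2 had 58.3, 29.9 and 78.8 CPM in the adenine libraries and 38.3, 49.0 and 27.2 CPM in the control libraries. The library with most Me1, control 3, had least Me2, and adenine 3 had most Me2 and least Me1. The log2 fold changes were -1.14 for Me1 (SE 0.71) and 0.55 for Me2 (SE 0.38), and neither passed (edgeR adjusted p = 0.581 and 0.61). Me1 had -2.04 without adenine 2 and -0.56 without control 3, and Me2 had 0.84 without adenine 2 and 0.21 without adenine 3. Me3, another mitochondrial malic enzyme and not a member, was highest in the same libraries as Me1. It had 5.36, 44.3 and 6.38 CPM in the adenine libraries and 46.0, 15.1 and 63.8 CPM in the control libraries (-1.16, SE 0.90). In its highest libraries Me3 thus lay with the cytosolic Me1 and not with the mitochondrial Me2. The part of the compartment in the contrast of Me1 with Me2 was not tested.

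Shares within isoenzyme families were compared per length, as a percentage of summed FPKM within each library. Pdk4 made up 23.4%, 63.6% and 34.4% of the 4 kinases in adenine 1 to 3, against 68.8%, 37.0% and 70.1% in control 1 to 3. Pdk3 made up 30.4%, 2.63% and 26.0% in the adenine libraries and 2.04%, 18.1% and 1.81% in the control libraries. Pdk2 stayed at 28.1% to 29.7% in the adenine libraries and 25.1% to 37.1% in the control libraries, while Pdk1 had 4.08% to 18.0% in the adenine libraries and 3.01% to 7.85% in the control libraries. The summed level of the 4 kinases was 43.4, 226 and 45.5 FPKM in the adenine libraries and 246, 62.3 and 331 FPKM in the control libraries.

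Suclg2 made up 46.1%, 16.0% and 30.7% of the 2 beta subunits in the adenine libraries and 12.1%, 18.5% and 10.6% in the control libraries, a mean of 30.9% ± 15.1 against 13.8% ± 4.18 (SD, n = 3 each). The difference of 17.2 percentage points was 9.55 without adenine 1 and 24.6 without adenine 2. Idh1 was 40.6%, 20.0% and 38.6% of Idh1 and Idh2 in the adenine libraries and 17.5%, 37.0% and 15.9% in the control libraries. Me1 was 64.8%, 91.2% and 46.1% of Me1 and Me2 in the adenine libraries and 90.2%, 71.5% and 95.6% in the control libraries. Me3 was not part of this share. Mdh1 held 46.9% to 54.6% of Mdh1 and Mdh2 in the adenine libraries and 48.3% to 52.3% in the control libraries. The groups overlapped in all 8 shares. In exact two-sided permutation tests over the libraries, the smallest p was 0.2, reached by 5 shares and 0.32 when adjusted over the 8; 3 against 3 libraries cannot give less than 0.1.

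**Figure D3:**
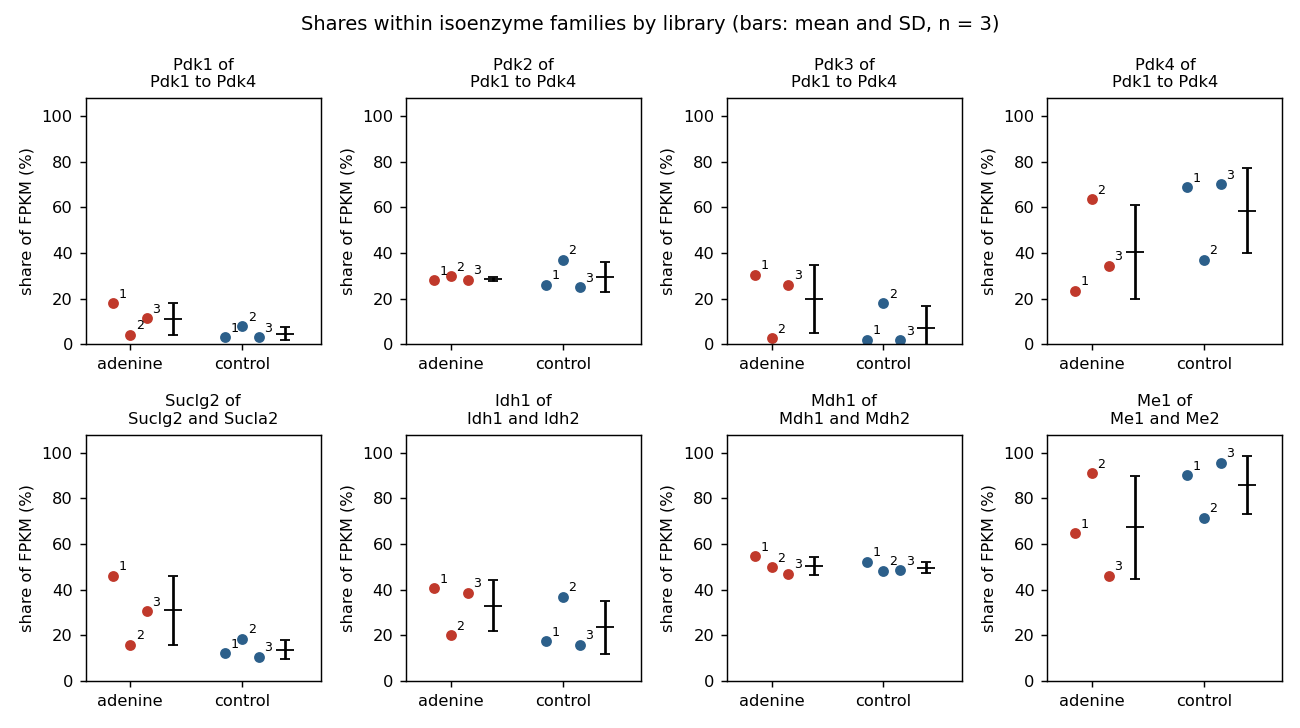
Share of each isoenzyme gene in the summed FPKM of the members of its family, in percent, by library. Adenine 1 to 3 are red (left) and control 1 to 3 blue (right), with numbers naming the libraries. Black bars give mean and SD of 3 libraries (that of Pdk3 on the control diet reaches below 0 and ends at the axis). In the Pdk4, Pdk3, Idh1 and Me1 panels adenine 2 lies with control 1 and control 3, and control 2 lies nearer the other adenine libraries; Mdh1 is near 50% throughout.

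The order of libraries was the main feature shared by these transcripts. For 28 of the 38 genes the 3 highest libraries were control 1, control 3 and adenine 2, the libraries with most muscle RNA, against 17.4% of all genes. For 4 genes, Acly, Me2, Pdk3 and Slc25a1, they were adenine 1, adenine 3 and control 2, against 14.6% of all genes. The full order control 3, control 1, adenine 2, control 2, adenine 3, adenine 1 was shared by 10 members, among them Cs, Idh3a, Sucla2 and Pdk4. It is not quite the order of the summed muscle list, which was 111562 CPM in adenine 2 and 77175 CPM in control 1. Single muscle genes differed in this. Acta1 had 15665 CPM in adenine 2 and 14467 CPM in control 1, whereas Myl1 had 3620 CPM in adenine 2 and 5984 CPM in control 1. The full order of Myl1 was that of these 10 members. Within the 28 genes the ratio of the highest to the lowest library had a median of 3.17 and ran from 1.68 for Sdhd to 24.2 for Pdk4, and 25 of them were lowest in adenine 1 or adenine 3. In the other 10 genes the median ratio was 2.09 and the highest 2.90, for Me2.

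With the muscle level, the mean log2 CPM of the muscle list, as a covariate, the members' median log2 fold change was -0.13, against -0.03 for all genes, and 28 of 38 were below 0, against 53% of all genes. The fit called 0 members, against 0.0128% of all genes, and 0 had an unadjusted p under 0.05, against 8.78% of all genes. Pdk4 had -0.05 (SE 0.43), Pdk2 -0.04 (SE 0.25), Cs 0.06 (SE 0.27), Sucla2 -0.38 (SE 0.28) and Idh3a -0.46 (SE 0.29). The largest sizes left were those of Mpc2 (-0.65, SE 0.39), Mpc1 (-0.55, SE 0.31), Idh3a and Idh1 (0.45, SE 0.23), with edgeR adjusted p values of 0.649 to 0.73. Muscle level and diet were unevenly spread over 6 libraries, so this fit rests on few degrees of freedom and does not tell the 2 apart.

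**Figure D4:**
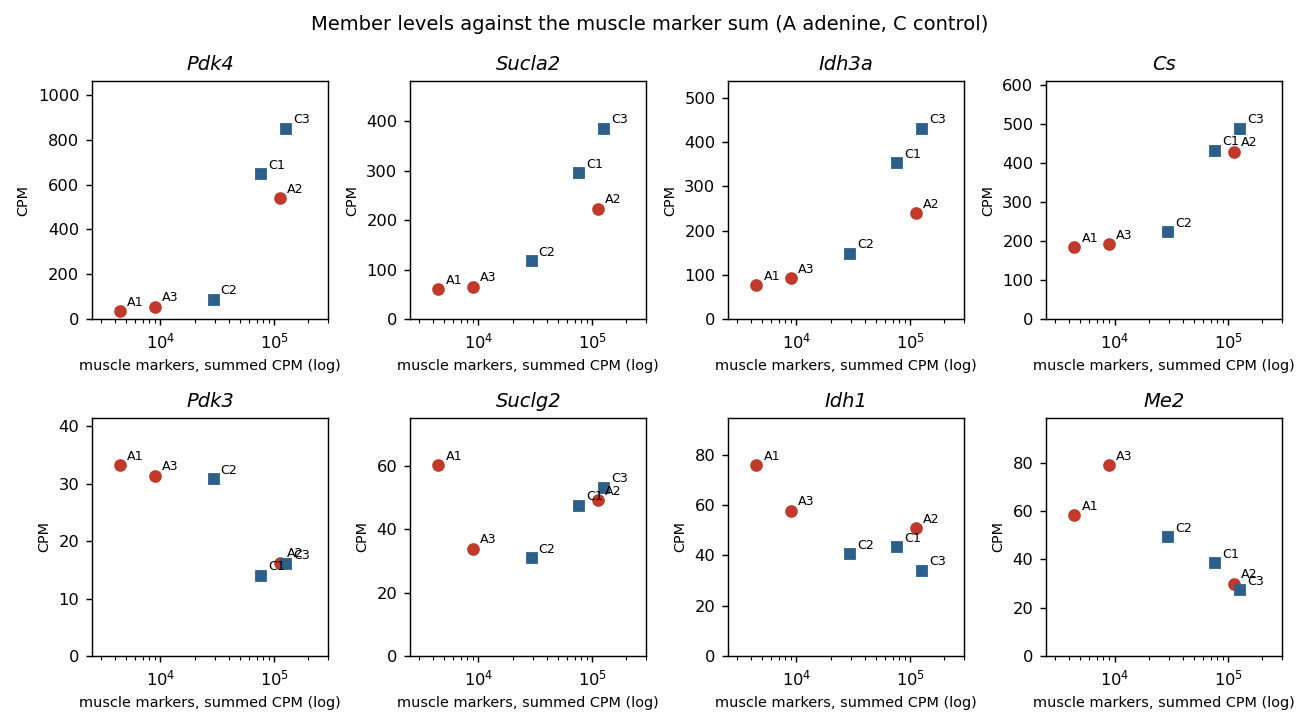
CPM of 8 members (vertical axes from 0) against the summed CPM of the tested muscle markers (log axis), 1 point per library, with adenine libraries as red circles (A1 to A3) and control libraries as blue squares (C1 to C3). In the upper row Pdk4, Sucla2, Idh3a and Cs are high in A2, C1 and C3, where the muscle sum is high. All of them are lower in A2 than in C1, whereas the muscle sum is higher in A2. Single muscle genes differ in this: Acta1 is higher in A2 and Myl1 in C1. In the lower row Pdk3 and Me2 are low in A2, C1 and C3, Suclg2 shows no single order and Idh1 is higher in A2 than in C1 and C3.

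Among 44 other genes of citrate, pyruvate and acetyl-CoA metabolism and its regulators, all tested, edgeR and DESeq2 called 0, against 0% and 1.93% of all genes. At an unadjusted p under 0.05 edgeR had 1 lower and 1 higher on adenine, against 6.49% and 4.22% of all genes. The log2 fold change was below 0 for 27 and above 0 for 17, whereas 50% of all genes were below 0, and the median was -0.16. The lowest p values on the negative side belonged to Esrra, an orphan receptor that drives mitochondrial genes (-0.93, SE 0.37, edgeR adjusted p = 0.452), Pdpr, the regulatory subunit of the phosphatase (-0.997, SE 0.49, adjusted p = 0.511), and Slc25a12, an aspartate-glutamate carrier of muscle and brain (-1.23, SE 0.61, adjusted p = 0.513). On the positive side they belonged to Slc25a13, the aspartate-glutamate carrier of liver (1.08, SE 0.45, edgeR adjusted p = 0.465), Slc25a22, a glutamate carrier (0.61, SE 0.26, adjusted p = 0.470), and Acss1, which makes acetyl-CoA from acetate in mitochondria (0.65, SE 0.32, adjusted p = 0.514). Slc25a12 had 48.4, 183 and 58.3 CPM in the adenine libraries and 265, 103 and 312 CPM in the control libraries, the order of Idh3a. Slc25a13 had 18.6, 7.03 and 15.1 CPM in the adenine libraries and 7.52, 7.75 and 4.03 CPM in the control libraries, with adenine 1 highest and control 3 lowest.

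Reads of overlapping genes on opposite strands cannot be told apart with certainty, since the sources used here do not state whether counting used strand. Of the 38 members, 11 overlap a gene of the other strand. For 8 of these the neighbour's mean count was at most 3.10% of the member's; it was 16.2% for Pcx (Lrfn4), 41.7% for Idh3b (Nop56) and 53.2% for Slc25a11 (Rnf167).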

How the data were processed

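PolyA RNA of flushed, pulverised tibial cortex was sequenced, per the labels' protocols. Tools listed in the submitters' processing notes, without roles, are edgeR 3.22.5, DESeq2, HISAT2 2.0.5 and featureCounts 1.5.0-p3; the sources used here do not name the build, annotation or strand setting. Of the 38 members, 3 have the same start and end in a GRCm38 annotation, so coordinates are those of the files and promoter windows those of RefSeq's GRCm38.p6. The authors deposited raw counts per gene, a normalized signal (counts over 1 size factor per library, not used in any test), FPKM per library, and their own log2 fold changes and p-values.

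The deposited counts were tested with edgeR 4.0.16 in R 4.3.3: filterByExpr with a minimum count of 10, scaling by the trimmed mean of M values (TMM), quasi-likelihood test with robust moderation, two-sided, diet as the only term, Benjamini-Hochberg over 15609 genes with a threshold of 0.05. The SE is the absolute log2 fold change over the square root of the F statistic. Alternatives, among them DESeq2 1.42.0 and limma 3.58.1, are described with the sensitivity of the results. The fits were also run on simulated counts with less spread than these data and with planted changes larger than that of any member. That run checks the code and says nothing about the power of the tests here. With 3 libraries per group the common biological coefficient of variation was 0.439, which limits precision more than depth does. All 38 members are named by rule; of the 44 other pathway genes, the 3 with the smallest p in each direction. Members, lists and tests were chosen with earlier results of these data known.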

Additional observations from a re-analysis of the deposited data

How the results depend on the processing

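The count of 0 members called held under all 15 alternatives: DESeq2 size factors, the DESeq2 Wald test, no filter, a minimum count of 50, no robust moderation, muscle and haemoglobin genes left out, limma-trend on log2(FPKM + 1), the muscle covariate, the replicate block and each library left out. Members at an unadjusted p under 0.05 were 24 without adenine 2 (19.7% of all genes), 17 without control 2 (17.7%) and 9 with no filter (8.2%), against 3 in the fit as reported (10.7%). The members' median of -0.68 ran from -1.03 (without adenine 2) to -0.48 (without control 3) and was -0.13 with the muscle covariate. That covariate turned the direction of 12 genes, none of them called: Cs 0.062, Acly -0.24, Idh2 0.43, Dlst 0.028, Dld 0.070, Sdhd 0.035, Me2 -0.045, Pcx 0.028, Pdk1 0.31, Pdk3 -0.13, Slc25a1 -0.054 and Slc25a10 -0.22. Limma-trend gave Dlst 0.0065 and Pdk1 0.0048. With 1 library left out, the range crossed 0 for Suclg2 (-0.079 to 0.32), Slc25a10 (-0.23 to 0.52), Acly (-0.12 to 0.37), Idh2 (-0.58 to 0.12), Pcx (-0.45 to 0.13), Dlst (-0.18 to 0.018), Pdk1 (-0.295 to 0.21), Slc25a1 (-0.033 to 0.22), the Pdk2 share (-2.88 to 3.12 percentage points) and the Mdh1 share (-1.29 to 2.56). The other shares kept their direction with ranges of 3.08 to 10.1 (Pdk1), 7.002 to 20.9 (Pdk3), -29.7 to -9.67 (Pdk4), 9.55 to 24.6 (Suclg2), 5.79 to 16.3 (Idh1) and -30.3 to -7.78 (Me1). The causes were not tested, except that these fits hold fewer samples.

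Replicate numbers did not pair the libraries: deviations from the group means correlated at -0.04, -0.45 and -0.17 for numbers 1, 2 and 3, and no library correlated best with its own number. With the replicate block 0 members were called and 0 had an unadjusted p under 0.05, and the median was -0.68; 986 genes had an unadjusted p under 0.05, against 1671 without it. The block ended the unadjusted calls of Idh1, Mpc1 and Mpc2 and changed no adjusted call.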
